A study of Mus musculus with 21 samples.

Results

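App and 8 genes related to it were followed through mouse colon and colon tumours: the App paralogs Aplp1 and Aplp2, the beta-secretases Bace1 and Bace2, the alpha-secretase Adam10, and the gamma-secretase subunits Psen2, Ncstn and Aph1a. These 9 genes were taken by symbol from a count table of 24062 genes, and all 9 were found and passed the low-count filter that left 15936 genes for testing. RNA sequencing covered 21 libraries in 7 groups of 3, all from C57BL/6 mice, whose age is not given in the sources used here. The groups were normal colon of wild-type males, wild-type females, App NL-G-F knock-in males and knock-in females, and AOM/DSS tumours of wild-type males, wild-type females and knock-in males. AOM/DSS is azoxymethane, a carcinogen, given together with dextran sulfate sodium, a compound that damages the epithelium of the colon. Knock-in libraries are labelled KIKI. Knock-in female tumours were not analysed here. Normal libraries are labelled as untreated, whereas the series design speaks of tissue next to tumours or of colon without tumours, so they are called normal colon. The series asks how the App mutations relate to colon tumour formation in the 2 sexes.

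App encodes the amyloid precursor protein, a membrane protein of neurons, epithelia and many other cells, and Aplp1 and Aplp2 encode its relatives, of which Aplp1 is mainly neuronal. The alpha-secretase ADAM10 cuts these proteins close to the membrane and releases a soluble outer part. Cleavage of App by the beta-secretase BACE1 followed by gamma-secretase instead yields the amyloid-beta peptide. Gamma-secretase is a complex of a presenilin (one is encoded by Psen2), nicastrin (Ncstn), an Aph1 protein and Psenen, and it also cleaves Notch, which the colon epithelium needs for its balance of absorptive and secretory cells. ADAM10 takes part in the same Notch cleavage.

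The knock-in allele alters App itself at its own locus, so the stretch it changes is shown here as the wild-type reference has it. In App-201, a transcript of 695 codons, NL replaces the 2 codons just before amyloid-beta, at positions 595 and 596, while G and F alter codons 618 and 641, which are amyloid-beta codons 22 and 45. The sequence below runs over 52 codons of exons 14 and 15 (GRCm38, minus strand, chr16:84965670-84965732 and chr16:84962776-84962868), with those 4 codons in capitals. Only the codons named by NL, G and F are marked, and any other codon that the allele changes in this stretch is not.
App-201 coding stretch: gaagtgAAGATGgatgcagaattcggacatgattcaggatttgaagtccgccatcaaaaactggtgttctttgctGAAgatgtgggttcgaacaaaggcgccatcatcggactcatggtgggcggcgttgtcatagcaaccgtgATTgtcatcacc
Beta-secretase cuts right after the first pair of capital codons, alpha-secretase after amyloid-beta codon 16, and gamma-secretase mainly after codon 40 or 42. Gene counts do not tell these alleles apart, so App counts neither check the genotype labels nor give the level of a mutant transcript.

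Library totals ran from 3414123 counts, in wild-type male tumour replicate 2, to 26174008 counts, in wild-type female normal replicate 1. Every member had at least 60 counts in every library, well above the floor of 3 counts. Levels are given as CPM, the count of a gene scaled to the library total adjusted by TMM factors. All 8 markers of colon epithelium were detected in every group, with summed levels from 5954 to 10970 CPM. The summed level of 10 smooth muscle markers was 2222 to 10827 CPM in the normal libraries and 270 to 1277 CPM in the tumours. All 10 fell in each tumour comparison. Of the 8 epithelial markers, 6 fell in wild-type male, 7 in wild-type female and 1 in knock-in male tumours, and 1 rose in each. Of 7 colonocyte markers, 6, 7 and 5 fell in that order, of 7 enteroendocrine markers 6, 7 and 5, and of 6 goblet cell markers 5, 5 and 3. Summed over all normal and all tumour libraries, colonocyte markers were at 1214 to 5919 against 382 to 1546 CPM, enteroendocrine markers at 127 to 335 against 16.96 to 79.6 CPM, and goblet cell markers at 10341 to 49115 against 2899 to 12981 CPM, and no marker of these lists was at 0 throughout a group. In wild-type female tumours, 4 of 6 fibroblast markers rose and 1 fell, and 3 of 5 endothelial markers rose. In wild-type male tumours 1 fibroblast marker fell, while 1 endothelial marker rose and 1 fell. In knock-in male tumours 1 fibroblast marker rose and no endothelial marker passed. Of 6 enteric glia markers, 5 fell in wild-type male, 3 in wild-type female and 3 in knock-in male tumours. The part of these markers in the members' differences was not tested. In such bulk samples, fewer cells of a type and less RNA per cell cannot be told apart. Library numbers in the labels follow genotype and group except for numbers 152 to 154, which belong to knock-in male tumour replicate 3 and to replicates 2 and 3 of the wild-type female tumours.

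On GRCm38 the substrate genes lie at chr16:84949685-85173766 (App), chr7:30434982-30445535 (Aplp1) and chr9:31149557-31211815 (Aplp2), all on the minus strand. Bace1 (chr9:45838580-45864399), Bace2 (chr16:97356742-97442936), Adam10 (chr9:70678997-70780229) and Aph1a (chr3:95893969-95898288) are on the plus strand, and Psen2 (chr1:180227004-180263438) and Ncstn (chr1:172066013-172082795) on the minus strand. All 9 are annotated as protein-coding.

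Per kilobase of the longest transcript, Aplp2 was the most abundant member, at a mean of 110.1 CPM per kb over the 21 libraries. App followed at 78.3, Ncstn at 69.5, Adam10 at 59.2 and Aph1a at 29.2 CPM per kb. Bace1 (10.1), Aplp1 (8.93), Psen2 (7.03) and Bace2 (5.23 CPM per kb) formed the low end. With the total exon length of each gene in place of the longest transcript, Aplp2 stayed first, Adam10 ranked second with 55.3 CPM per kb, then Ncstn with 52.8 and App with 49.2 CPM per kb, since the longest App transcript, at 8167 bases, is shorter than its joined exons, at 12996 bases. The members also differed in how much they varied. Ncstn ran only from 159.7 to 231 CPM over all 21 libraries, a 1.45-fold span, whereas Bace2 ran from 14.3 to 68.4 CPM, a 4.80-fold span.

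**Figure D1:**
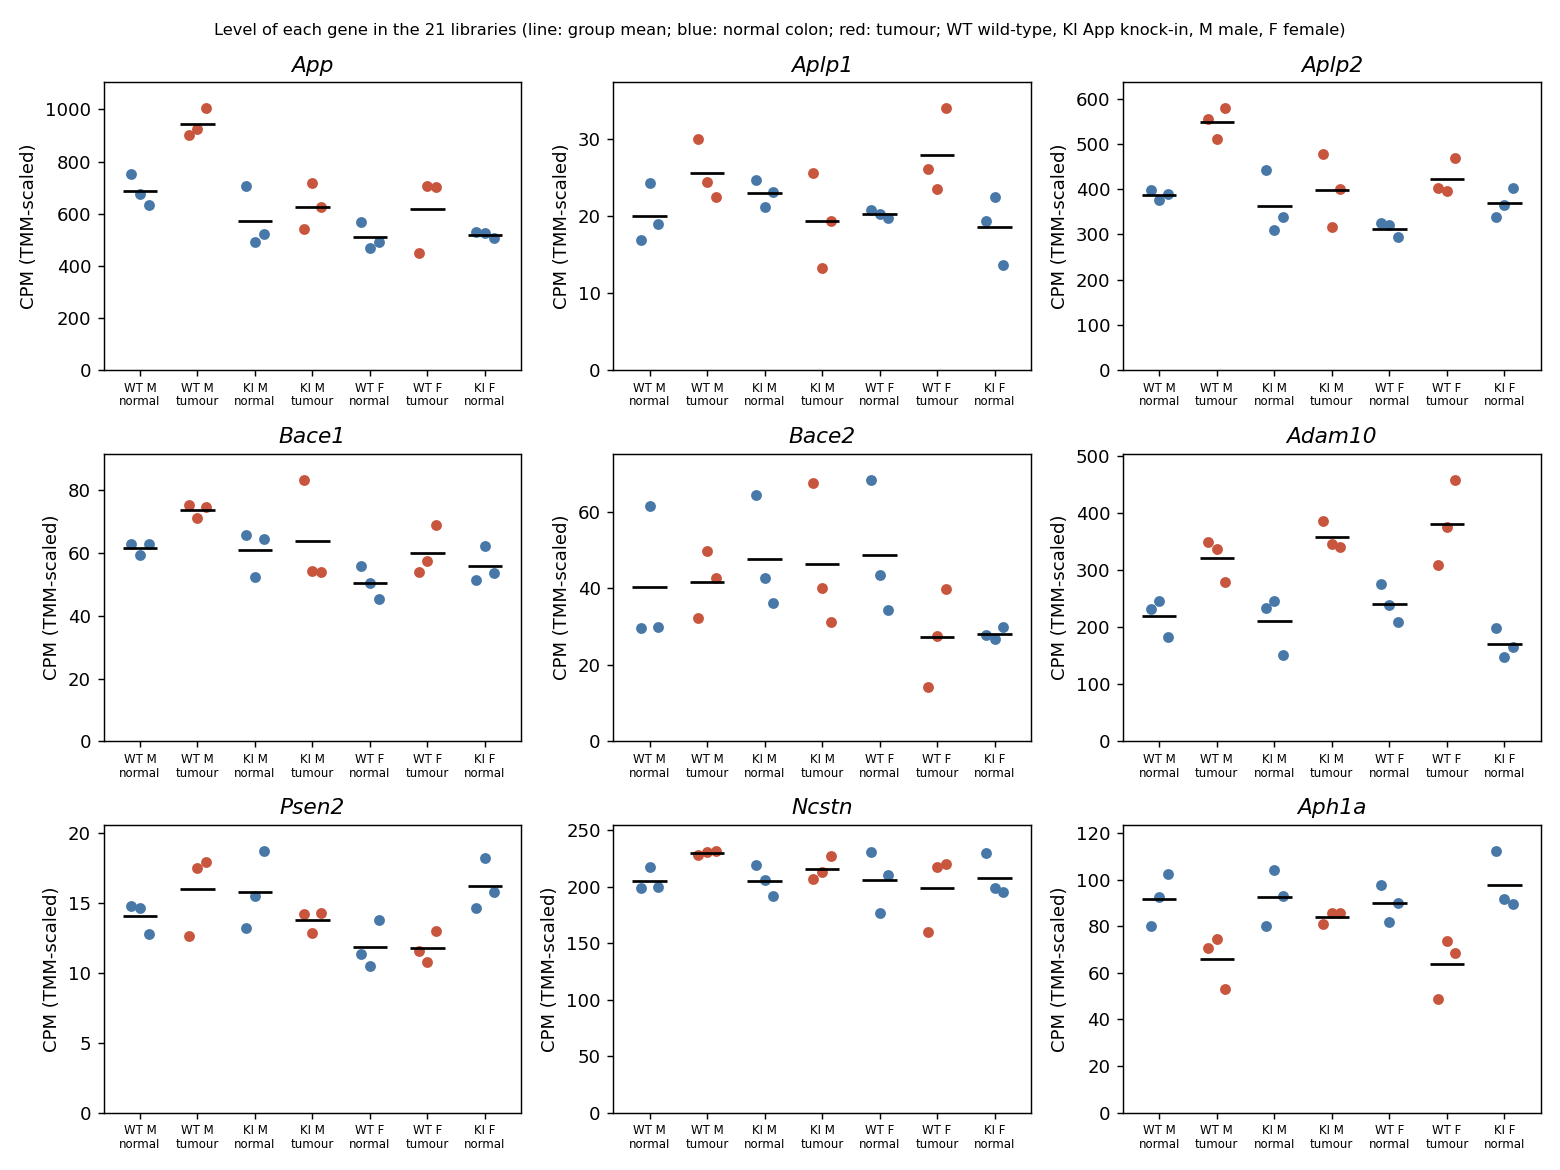
Level of each of the 9 genes in CPM (vertical axis, from 0) in the 21 libraries, by group; points are libraries and lines are group means. Adam10 lies higher in all 3 tumour groups than in the matching normal colon, App and Aplp2 are highest in wild-type male tumours, and Ncstn is nearly level.

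Tumours were compared with normal colon within each genotype and sex. Here and below, groups said not to overlap are 3 against 3 libraries. The share of all tested genes without overlap is not given, so non-overlap is a description and adds no support to a call. In wild-type males, 4 of the 9 members passed the test: Aplp2, App and Adam10 rose and Aph1a fell. Of all genes tested, 35.7% passed there (16.5% higher, 19.3% lower), so the share of members called was close to the background. In wild-type females 3 members passed, Adam10 and Aplp2 upward and Aph1a downward, against 49.1% of all genes (25.0% higher, 24.0% lower). In knock-in males only Adam10 passed, upward, against 20.4% of all genes (10.4% higher, 9.97% lower). The median log2 fold change of the 9 members was 0.26 for wild-type males, 0.25 for wild-type females and 0.07 for knock-in males, while that of all tested genes was 0.01 in each.

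**Figure D2:**
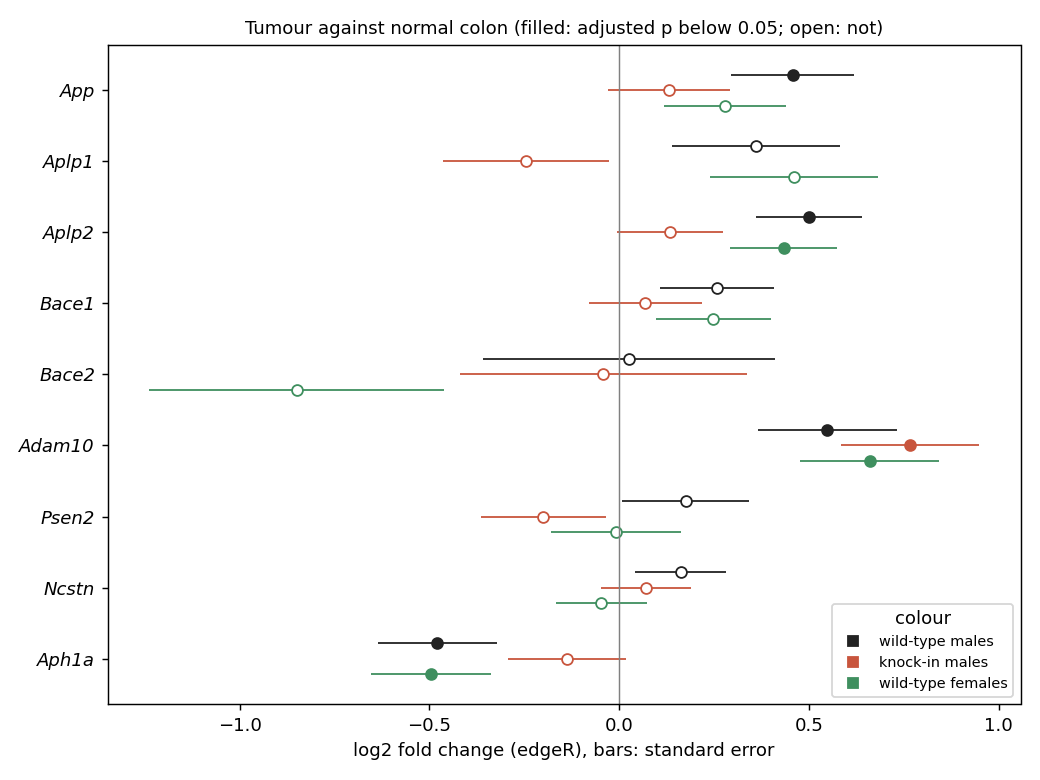
log2 fold change of tumour against normal colon (horizontal axis) for the 9 genes, with bars of 1 standard error; colours stand for wild-type males, knock-in males and wild-type females, and filled points have an adjusted p below 0.05 in edgeR. Adam10 is the member filled in all 3 comparisons, with values of 0.55 to 0.77.

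App was the member with the highest counts. In wild-type male normal colon its level was 752, 676 and 634 CPM, and in wild-type male tumours it was 903.5, 923 and 1004 CPM. The tumours all lay above the normal libraries (log2 fold change 0.46, SE 0.16, edgeR adjusted p = 0.0341). This call was lost with the replicate number as a block, which took the same effect per number in 18 libraries of 6 groups (adjusted p = 0.0717). That block is not a paired test of the wild-type male libraries alone. The call was also lost in 5 of 6 fits that left out 1 library (adjusted p 0.0614 to 0.124), and held without wild-type male normal replicate 1. Knock-in male normal colon had 708, 489 and 522 CPM and knock-in male tumours 539.8, 716 and 626 CPM, so that these groups overlapped (log2 fold change 0.13, SE 0.16, adjusted p = 0.587). Wild-type female normal colon had 568, 469.5 and 492 CPM, against 449.6, 705 and 700.5 CPM in the tumours. Wild-type female tumour replicate 1 was the lowest App library of all, while the other replicates lay above every normal library of that sex. The log2 fold change in females was 0.28 (SE 0.16, adjusted p = 0.162), and this value depended on the fit. It was 0.46 without that library (adjusted p = 0.0162), 0.42 with library totals as the scale (0.0366) and 0.32 in limma voom (0.0409). It was 0.16 with offsets for GC content and length (adjusted p = 0.425), 0.04 with the libraries numbered 152 to 154 as a covariate (0.880), and turned to -0.16 without those libraries (0.571), which leaves replicate 1 as the single female tumour. Knock-in female normal colon was the tightest group, at 528, 526 and 505 CPM.

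Aplp2, the widely expressed App relative, was measured at 398, 375 and 389 CPM in wild-type male normal colon and at 555, 509.9 and 578 CPM in the tumours. The 2 groups did not overlap (log2 fold change 0.50, SE 0.14, adjusted p = 0.00985), and the call stayed past the threshold in each fit leaving out 1 library. In wild-type females the level was 325, 320.1 and 293 CPM in normal colon and 403, 395 and 469 CPM in tumours, again without overlap (log2 fold change 0.43, SE 0.14, adjusted p = 0.0155). This female call was lost without normal replicate 3 (adjusted p = 0.0594) and without tumour replicate 3 (0.0790). The same held with offsets for GC content and length (0.148), and with the libraries numbered 152 to 154 as a covariate (0.0831). It was also lost with the replicate block plus those offsets. Leaving out those libraries lost it too, a fit with replicate 1 as the single female tumour. Knock-in males gave 442, 309.9 and 338 CPM in normal colon and 478, 316 and 401 CPM in tumours, which overlapped (log2 fold change 0.13, SE 0.14, adjusted p = 0.516). Knock-in female normal colon had 339, 365 and 403 CPM.

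Aplp1, the mainly neuronal relative, stayed low in every library, from 13.2 CPM in knock-in male tumour replicate 2 to 33.9 CPM in wild-type female tumour replicate 3. In wild-type females the 3 tumours, at 26.1, 23.5 and 33.9 CPM, lay above the normal libraries at 20.8, 20.2 and 19.7 CPM. The log2 fold change of 0.46 (SE 0.22) did not pass the test (adjusted p = 0.0935), and was 0.06 with offsets for GC content and length. The value for wild-type males was 0.36 (adjusted p = 0.214) and that for knock-in males -0.25 (adjusted p = 0.439). The 10 markers of enteric neurons, the nerve cells of the gut wall, summed to 49.0 to 69.0 CPM in wild-type female tumours and 32.1 to 44.8 CPM in normal colon, with 1 higher and 6 lower of 9 tested and with Prph and Chat at 0 in the tumours. Their part in the Aplp1 values was not tested.

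Adam10, the alpha-secretase gene, rose in tumours of all 3 settings. In wild-type males it was at 231, 247 and 182 CPM in normal colon and 349.6, 338 and 279 CPM in tumours. In knock-in males the normal libraries had 234, 246 and 151 CPM and the tumours 386, 346 and 341 CPM. In wild-type females the values were 275, 238 and 209 CPM against 309, 376 and 458 CPM. In none of the 3 comparisons did a tumour library overlap the normal libraries. The log2 fold changes were 0.55 for wild-type males (SE 0.18, adjusted p = 0.0254), 0.66 for wild-type females (SE 0.18, adjusted p = 0.00574) and 0.77 for knock-in males (SE 0.18, adjusted p = 0.00888). Neither interaction, of tumour effect with genotype (0.22, adjusted p = 0.614) or with sex (0.11, adjusted p = 0.916), passed the test. The wild-type male call was lost without normal replicate 1 (adjusted p = 0.0525), normal replicate 3 (0.129), tumour replicate 1 (0.101) or tumour replicate 2 (0.0699), and the knock-in call without normal replicate 3 (0.0502). The knock-in call was also lost in a fit of only the compared groups. The same held for the replicate block plus offsets for GC content and length (adjusted p up to 0.0648 in these fits). The female call was lost when the libraries numbered 152 to 154 were a covariate (adjusted p = 0.0701) or were left out (0.268, with a single female tumour assumed to vary like the other groups).

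Bace1, the main beta-secretase gene of neurons, did not pass the test in any tumour comparison. Its level was 62.9, 59.4 and 63.0 CPM in wild-type male normal colon and 75.3, 71.3 and 74.8 CPM in the tumours. These groups did not overlap, yet the log2 fold change of 0.26 (SE 0.15) had an adjusted p of 0.191. It was 0.25 for wild-type females (SE 0.15, adjusted p = 0.186) and 0.07 for knock-in males (SE 0.15, adjusted p = 0.771). Knock-in male tumour replicate 1, at 83.3 CPM, was the highest Bace1 library, and replicates 2 and 3 of that group, at 54.3 and 53.9 CPM, were below 5 of the 6 normal male libraries. Bace1 shares 975 exon bases (15.4% of its exons) with Rnf214 on the opposite strand, which averaged 49.6 CPM. Whether the counting used strand is not given in the sources used here, so part of the Bace1 counts may belong to Rnf214.

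Bace2, the Bace1 paralog found in peripheral tissues, was the most variable member within groups. Wild-type male normal colon had 29.8, 61.6 and 29.9 CPM, and wild-type male tumours 32.2, 49.8 and 42.7 CPM, which overlapped (log2 fold change 0.03, SE 0.38, adjusted p = 0.968). In wild-type females, normal colon had 68.4, 43.6 and 34.4 CPM and tumours 14.3, 27.5 and 39.8 CPM. One tumour library thus lay above 1 normal library, and the log2 fold change of -0.85 (SE 0.39) had an adjusted p of 0.0800. It passed without tumour replicate 3 (log2 fold change -1.23, adjusted p = 0.0286) and without the libraries numbered 152 to 154 (-1.76, adjusted p = 0.0231), and was -0.52 without normal replicate 1 (0.343) and -0.55 without tumour replicate 1 (0.278). In knock-in males the log2 fold change was -0.04 (SE 0.38, adjusted p = 0.950), with a 95% interval from -0.85 to 0.77.

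Aph1a, the Aph1 subunit of gamma-secretase with the highest count among the 3 Aph1 genes, fell in wild-type tumours. In wild-type males its level was 80.2, 92.6 and 103 CPM in normal colon and 70.5, 74.5 and 53.1 CPM in tumours (log2 fold change -0.48, SE 0.16, adjusted p = 0.0240). In wild-type females it was 97.8, 81.7 and 90.1 CPM against 48.9, 73.7 and 68.6 CPM (log2 fold change -0.50, SE 0.16, adjusted p = 0.0138). The groups did not overlap in either sex. Knock-in male tumours, at 80.9, 85.7 and 85.5 CPM, overlapped the normal libraries at 80.2, 104 and 93.0 CPM (log2 fold change -0.14, SE 0.16, adjusted p = 0.548). The male call was lost without normal replicate 3 (adjusted p = 0.108) or tumour replicate 3 (0.132). The female call was lost without normal replicate 1 (0.0605) or tumour replicate 1 (0.0883), and with library totals as the scale (0.0704). Aph1a shares 445 exon bases (12.9%) with Car14 on the opposite strand, which averaged only 1.54 CPM.

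Ncstn and Psen2, the nicastrin and presenilin-2 subunit genes, did not pass the test in any tumour comparison. Ncstn was at 199 to 217 CPM in wild-type male normal colon and 227, 231 and 231 CPM in the tumours, which lay above without overlap (log2 fold change 0.16, SE 0.12, adjusted p = 0.305). The knock-in male value was 0.07 (adjusted p = 0.703) and the wild-type female value -0.05 (adjusted p = 0.767). Ncstn shares 195 exon bases (4.91%) with Copa on the opposite strand, which averaged 398 CPM. Psen2 ranged from 10.5 to 18.7 CPM, with tumour log2 fold changes of 0.18 for wild-type males (adjusted p = 0.438), -0.01 for wild-type females (adjusted p = 0.976) and -0.20 for knock-in males (adjusted p = 0.401).

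The balance of secretases was described by ratios of CPM per kb within a library, chosen after values were seen. The Adam10 to Bace1 ratio was 6.49, 6.24 and 6.11 in wild-type female normal colon and 7.55, 8.66 and 8.75 in the tumours, which lay above without overlap. In knock-in males it was 4.69, 6.18 and 3.09 in normal colon and 6.11, 8.39 and 8.34 in tumours, with overlap. Wild-type males had 4.85, 5.48 and 3.82 in normal colon and 6.12, 6.25 and 4.91 in tumours, also overlapping. The Bace2 to Bace1 ratio fell nowhere below 0.60 in wild-type female normal colon and nowhere above 0.46 in the tumours of that sex. Over 27 such comparisons of 3 ratios, the smallest two-sided exact permutation p was 0.1, the smallest that 3 against 3 libraries allow, and no ratio passed after Benjamini-Hochberg adjustment (0.338 for those at 0.1).

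**Figure D3:**
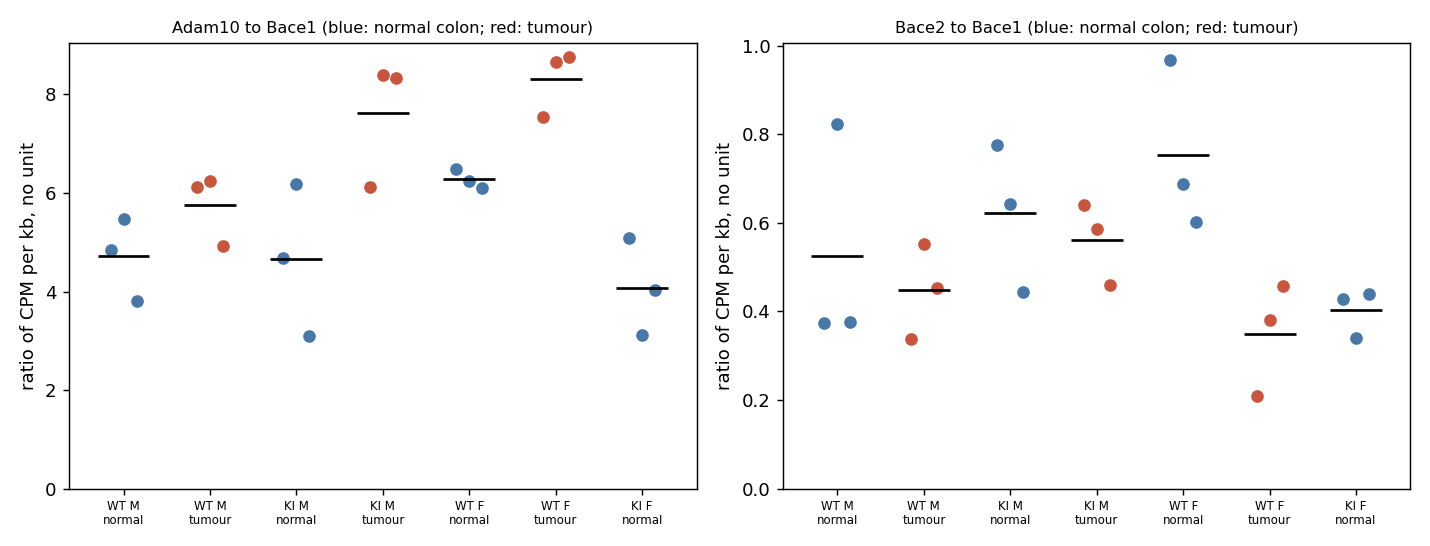
Ratio of Adam10 to Bace1 (left) and of Bace2 to Bace1 (right), each as CPM per kb of the longest transcript over the same unit, in the 21 libraries; points are libraries and lines group means. The wild-type female tumours reach 8.75 on the left and as low as 0.210 on the right.

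Genotypes were compared in male tumours and in the normal colon of each sex. In male tumours App and Aplp2 were lower in the knock-in, so 2 of 9 members passed, against 14.5% of all genes (9.30% higher, 5.23% lower). The App values of the 3 wild-type tumours, from 903.5 to 1004 CPM, were all above the 3 knock-in tumours, from 539.8 to 716 CPM. Knock-in tumours differed from them by -0.59 on the log2 scale (SE 0.16, adjusted p = 0.0251). For Aplp2 it was -0.46 (SE 0.14, adjusted p = 0.0366), from 509.9 to 578 CPM in wild-type tumours against 316 to 478 CPM in knock-in tumours. Aph1a, at 80.9 to 85.7 CPM, lay above the wild-type tumours at 53.1 to 74.5 CPM without passing the test (log2 fold change 0.35, SE 0.16, adjusted p = 0.129). These wild-type tumours are also those of the comparison with normal colon, so the values of App, Aplp2 and Aph1a in the 2 comparisons are not independent. The App call was lost without wild-type tumour replicate 2 (adjusted p = 0.0546) or 3 (0.0865) or knock-in tumour replicate 1 (0.0613). The Aplp2 call was lost in 5 of 6 such fits, and held only without knock-in tumour replicate 1 (adjusted p 0.0567 to 0.147 in the others).

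The knock-in male tumours also differed in tissue markers. The summed level of 6 goblet cell markers was 5104 to 12981 CPM in them and 3013 to 4190 CPM in wild-type male tumours, that of 10 smooth muscle markers 1030 to 1277 against 334 to 976 CPM, and that of 6 enteric glia markers 238 to 275 against 191 to 198 CPM. Of these lists, 2 of 6, 0 of 10 and 2 of 6 genes passed the test, all upward. Of 5 macrophage markers, 4 had a negative log2 fold change and 1 a positive one, and 2 passed downward. Their sums overlapped, at 125 to 192 against 171 to 265 CPM. All 7 colonocyte markers had a positive log2 fold change and 1 passed, with sums of 634 to 1546 against 557 to 686 CPM, and 2 of 7 enteroendocrine markers passed upward, with sums of 54.8 to 70.1 against 31.7 to 79.6 CPM. One marker each of endothelium and fibroblasts passed upward and 1 of epithelium downward. No marker of the goblet cell, smooth muscle, glia, macrophage, colonocyte or enteroendocrine lists was at 0 throughout either group. Their part in the App and Aplp2 differences was not tested.

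In male normal colon no member passed between genotypes, and 0.0126% of all genes passed in edgeR. No member had an unadjusted p under 0.05, where 532 of the 15936 genes did. DESeq2 and limma voom also called 0 members. App was -0.26 on the log2 scale there (SE 0.16, 95% interval -0.61 to 0.08). In female normal colon no member passed either, against 16.0% of all genes. At an unadjusted p under 0.05 there were 2 members, and 4976 of the 15936 genes. Adam10 was at 198, 147 and 165 CPM in the knock-in and 275, 238 and 209 CPM in the wild type, below without overlap (log2 fold change -0.50, SE 0.18, edgeR adjusted p = 0.0671). Psen2, at 14.6, 18.2 and 15.8 CPM against 11.3, 10.5 and 13.8 CPM, lay above without overlap (0.45, SE 0.17, adjusted p = 0.0738), a value that was 0.10 with offsets for GC content and length (adjusted p = 0.697). Bace2, at 27.9, 26.6 and 29.8 CPM, lay below all 3 wild-type libraries (-0.81, SE 0.38, adjusted p = 0.163). DESeq2 called 0 members and limma voom 3, Adam10, Bace2 and Psen2 (adjusted p 0.0184, 0.0435 and 0.0296). Of all genes, limma voom called 4506 of 15936 there and DESeq2 3035 of 24062, against 2545 of 15936 in edgeR. App differed by 0.03 (SE 0.16, 95% interval -0.32 to 0.37). Smooth muscle markers summed to 7780 to 10827 CPM in these knock-in libraries and 2222 to 5112 CPM in the wild type, with 5 of 10 passing upward and none at 0, and goblet markers to 10341 to 11380 against 24170 to 49115 CPM, with 5 of 6 passing downward and none at 0. Of the endothelial markers 4 of 5, and of the fibroblast markers 3 of 6, passed upward. Their part in these values was not tested.

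**Figure D4:**
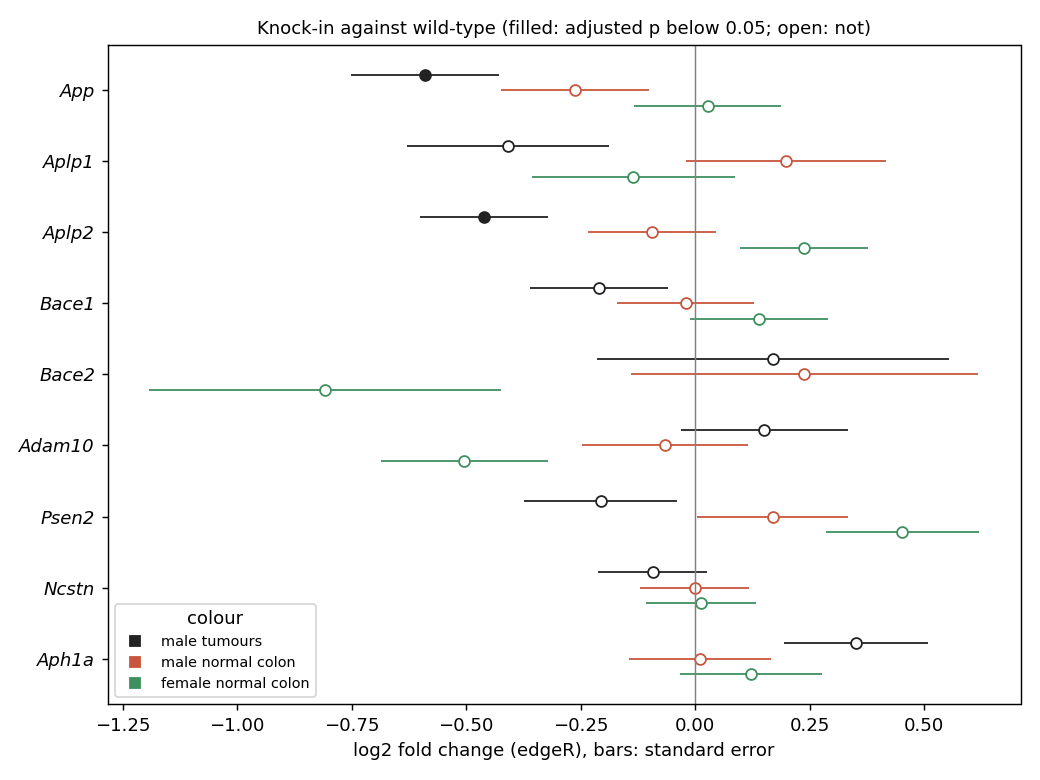
log2 fold change of knock-in against wild-type (horizontal axis) for the 9 genes, with bars of 1 standard error; colours stand for male tumours, male normal colon and female normal colon, and filled points have an adjusted p below 0.05 in edgeR. App at -0.59 and Aplp2 at -0.46 in male tumours are the 2 filled points.

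The difference between genotypes in the male tumour effect passed for no member, with 1.51% of all genes passing. It was -0.33 for App (SE 0.23, adjusted p = 0.375), -0.37 for Aplp2 (SE 0.20, adjusted p = 0.248), -0.61 for Aplp1 (SE 0.31, adjusted p = 0.227) and 0.34 for Aph1a (SE 0.22, adjusted p = 0.338). A tumour change of App that passed in wild-type and missed in knock-in males was thus not shown to differ between them. The difference between genotypes by sex in normal colon also passed for no member, against 2.54% of all genes, with the widest value for Bace2 (-1.05, SE 0.54, adjusted p = 0.329). No member had an unadjusted p under 0.05 in either, where 4023 and 2828 of the 15936 genes did. DESeq2 and limma voom called 0 members in both.

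Females were set against males in 3 settings, and no member passed in any. Of all genes, 0.860% passed in wild-type tumours, 15.9% in wild-type normal colon (5.74% higher, 10.2% lower) and 0.584% in knock-in normal colon. At an unadjusted p under 0.05 there were 3, 2 and 0 members in that order, where 3350, 5033 and 2433 of the 15936 genes were under it. App was lower in the 3 female than in the 3 male wild-type tumours (449.6 to 705 against 903.5 to 1004 CPM), with a log2 fold change of -0.61 (SE 0.16) and an adjusted p of 0.0626 in edgeR, 0.0123 in DESeq2 and 0.00863 in limma voom. DESeq2 and limma voom also called more of all genes there, 841 of 24062 and 2944 of 15936, against 137 of 15936 in edgeR. In wild-type normal colon App was 469.5 to 568 CPM in females and 634 to 752 CPM in males, without overlap (-0.43, SE 0.16, adjusted p = 0.0758 in edgeR and 0.0235 in limma voom, which called 1 member, while DESeq2 called 0). Of all genes in that comparison, limma voom called 5375 of 15936 and DESeq2 3183 of 24062, against 2534 of 15936 in edgeR. Aplp2 and Bace1 also lay lower in females in both, without overlap. Their log2 fold changes were -0.38 and -0.30 in tumours (adjusted p 0.141 and 0.268) and -0.31 and -0.29 in normal colon (adjusted p 0.139 and 0.203). With offsets for GC content and length, the normal colon values were -0.28 for App (adjusted p = 0.221), -0.14 for Aplp2 (0.523) and 0.00 for Bace1 (0.991). In the same normal colon, 5 of 5 endothelial, 3 of 6 fibroblast and 3 of 10 smooth muscle markers were lower in females and 2 of 6 goblet cell markers higher. Endothelial markers summed to 50.5 to 79.1 CPM in females and 117 to 158 CPM in males, fibroblast markers to 1126 to 1369 against 2368 to 2659 CPM, smooth muscle markers to 2222 to 5112 against 3224 to 10694 CPM, and goblet cell markers to 24170 to 49115 against 11885 to 24321 CPM. No marker of these lists was at 0 throughout either group, and their part in the members' values was not tested. In wild-type tumours limma voom called App and Aplp2, and DESeq2 called 1 member. In knock-in normal colon App differed by -0.14 (SE 0.16, 95% interval -0.49 to 0.20), and both other tools called 0 members. The tumour effect differed between the sexes for no member, with 0 called by DESeq2 or limma voom, and 1.12% of all genes passing. At an unadjusted p under 0.05 there were 0 members, and 2198 of the 15936 genes.

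Across the 7 groups, wild-type male tumours had the highest mean of App, Aplp2, Bace1 and Ncstn. Their App mean was 943 ± 53 CPM (SD, n = 3), above the next group without overlap, which was wild-type male normal colon with 687 ± 60 CPM (SD, n = 3). Each further group overlapped the next lower one, down to wild-type female normal colon with 509.7 ± 51.6 CPM (SD, n = 3). For Aplp2, wild-type male tumours had a mean of 548 ± 35 CPM (SD, n = 3) and overlapped no group, and wild-type female normal colon was lowest with 313 ± 17 CPM (SD, n = 3). For Adam10, wild-type female tumours were highest with 381 ± 75 CPM (SD, n = 3) and knock-in female normal colon lowest with 170.0 ± 26.1 CPM (SD, n = 3).

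Promoters were looked at for the 4 members that passed a tumour test, which moved in different directions. RefSeq (GRCm38.p6) gave a window for 7 of the 9 members, from 250 bases before to 50 bases after the start. GC boxes, searched as GGGCGG or CCGCCC on both strands with overlaps allowed, are in capitals. Of 32851 promoters in the table, 32.7% hold at least 1. The bases after the start are left out, and for App so is a part that lies inside annotated transcripts.
Aplp2 (chr9:31211849-31212098, minus strand): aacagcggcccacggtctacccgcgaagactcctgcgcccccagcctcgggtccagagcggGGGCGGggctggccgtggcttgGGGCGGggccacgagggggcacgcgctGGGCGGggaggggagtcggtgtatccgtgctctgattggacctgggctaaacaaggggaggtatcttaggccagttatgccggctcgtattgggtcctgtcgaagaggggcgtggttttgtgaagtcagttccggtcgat
Adam10 (chr9:70678732-70678981, plus strand): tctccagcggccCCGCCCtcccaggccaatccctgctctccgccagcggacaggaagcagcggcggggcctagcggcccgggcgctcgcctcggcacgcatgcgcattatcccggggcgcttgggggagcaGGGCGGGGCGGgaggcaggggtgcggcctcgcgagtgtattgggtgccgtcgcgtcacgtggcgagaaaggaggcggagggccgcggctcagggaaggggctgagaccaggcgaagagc
App (chr16:85173767-85173957, minus strand): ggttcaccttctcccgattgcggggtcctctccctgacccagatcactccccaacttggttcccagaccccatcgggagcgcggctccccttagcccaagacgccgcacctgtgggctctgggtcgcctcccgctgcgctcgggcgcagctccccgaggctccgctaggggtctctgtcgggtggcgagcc
Aph1a (chr3:95893671-95893920, plus strand): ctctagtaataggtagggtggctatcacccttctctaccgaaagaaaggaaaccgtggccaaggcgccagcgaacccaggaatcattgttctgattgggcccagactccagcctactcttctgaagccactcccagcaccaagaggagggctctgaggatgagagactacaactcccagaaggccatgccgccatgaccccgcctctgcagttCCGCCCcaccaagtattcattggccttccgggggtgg
Aplp2 and Adam10 each hold 3 GC boxes and Aph1a 1. App has 1 in its full window but none in the printed part. The windows of Aplp2, Adam10, App and Aph1a have a GC content of 66.4%, 74.0%, 70.8% and 57.2%, all above the median of 52.4% over all promoters. None holds the TATA box letters TATAAA or TTTATA, which occur in 12.4% of promoters. Among members that passed no tumour test, Aplp1 had a GC content of 66% with 1 GC box and Ncstn 63.2% with 0. The Psen2 windows had 62.8% with 2 and 44.8% with 0. None of these windows holds the TATA box letters either, so the traits are not particular to the 4. These matches are descriptions of letters, not of binding.

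Genes that act with the members were followed in a list of 39, all tested, which holds the other gamma-secretase and alpha-secretase genes, adaptors that bind the App tail, sorting receptors, amyloid-degrading enzymes and regulators of ADAM proteins. In wild-type male tumours 7 rose and 11 fell, that is 18 of 39, where 35.7% of all genes passed. In knock-in male tumours 5 rose and 6 fell (11 of 39, against 20.4% of all genes), and in wild-type female tumours 12 rose and 13 fell (25 of 39, against 49.1%). The tetraspanin Tspan5, which helps ADAM10 leave the endoplasmic reticulum, rose with log2 fold changes of 1.01 in wild-type males (adjusted p = 0.000553) and 1.81 in wild-type females (adjusted p = 1.14e-06), and was 0.42 in knock-in males without passing. Apbb1, which encodes the adaptor Fe65, fell in all 3, by 1.72 on the log2 scale for wild-type males (adjusted p = 0.000188), 1.26 for wild-type females (0.00165) and 1.58 for knock-in males (0.00232). Bin1, an endocytic adaptor, fell by 0.99 on the log2 scale in wild-type males (adjusted p = 0.0291). Apba1, another tail adaptor, fell by 1.20 on the log2 scale in knock-in males (adjusted p = 0.00312), where Ide, an enzyme that degrades insulin and amyloid-beta, rose by 1.08 (adjusted p = 0.0225). In wild-type females the reelin pathway adaptor Dab1 rose by 2.36 on the log2 scale (adjusted p = 0.0168). Its normal libraries ranged over 0.279 to 0.774 CPM, or 2 to 7 counts, near the floor of 3 counts. The gamma-secretase gene Aph1c fell in wild-type females by 1.53 on the log2 scale (adjusted p = 0.00362). The median log2 fold changes of the 39 genes were -0.13 for wild-type males, -0.02 for wild-type females and -0.12 for knock-in males. All 10 smooth muscle markers fell in the same comparisons, as given above with markers of other cell types. Their part in the values of the listed genes was not tested.

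**Figure D5:**
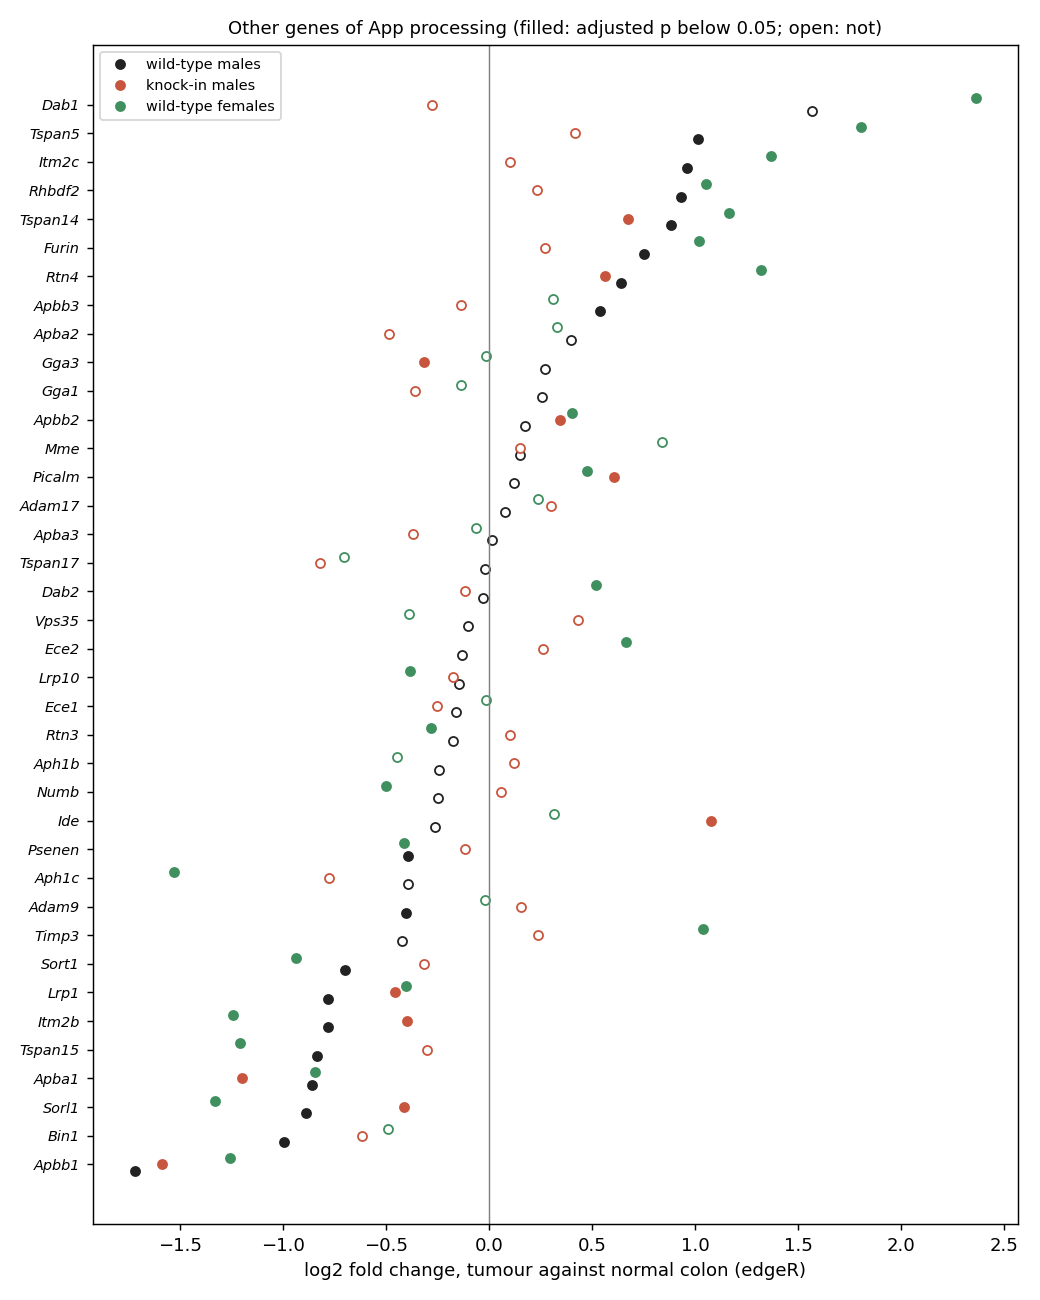
log2 fold change of tumour against normal colon (horizontal axis) for 38 of the 39 listed genes, ordered by the value in wild-type males; colours stand for the 3 comparisons, and filled points have an adjusted p below 0.05 in edgeR. Apbb1 is filled at the low end in all 3, and Tspan5 is filled at the high end in the wild-type mice of both sexes.

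Between genotypes, knock-in male tumours had 4 of the 39 higher and 3 lower than their wild-type counterparts, where 9.30% of all genes were higher and 5.23% lower. Itm2c, a relative of the amyloid-related gene Itm2b, was lower by -0.78 on the log2 scale (adjusted p = 0.0169) and Rhbdf2, a partner of ADAM17, by -0.61 (adjusted p = 0.0155), while the ADAM10 partner Tspan15 was higher by 0.56 (adjusted p = 0.0306). In female normal colon 10 were higher and 1 lower in the knock-in, where 8.97% of all genes were higher, and 1116 of the 15936 tested were lower. Smooth muscle, endothelial and fibroblast markers were higher and goblet cell markers lower in the same comparison, as given above with the members, and their part in these counts was not tested. Mme, which encodes the amyloid-degrading peptidase neprilysin, was at 8.81, 8.21 and 10.8 CPM in the knock-in and 1.18, 0.697 and 2.94 CPM in the wild type, without overlap (log2 fold change 2.59, SE 0.70, adjusted p = 0.0191). Timp3, an inhibitor of metalloproteinases, was higher by 1.45 (adjusted p = 0.000137) and Apbb1 by 1.12 (adjusted p = 0.00892). Wild-type females had 2 genes higher and 9 lower than males in normal colon, where 5.74% of all genes were higher and 10.2% lower and the endothelial, fibroblast and smooth muscle markers that passed were lower too. Among the 9 were Timp3 at -1.11 (adjusted p = 0.000943), Apbb1 at -0.80 (adjusted p = 0.0468) and Itm2c at -0.80 (adjusted p = 0.0110). These 2 comparisons share the wild-type female normal libraries. None of the 39 passed between genotypes in male normal colon or between the sexes in wild-type tumours or knock-in normal colon. Among the interactions, Timp3 passed for sex by tumour (1.46, adjusted p = 0.0148) and for genotype by sex in normal colon (1.71, adjusted p = 0.00366), and Lrp1, an endocytic receptor, for the latter (1.04, adjusted p = 0.0148).

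Over the 21 libraries, which share group differences and cell makeup, the genes whose log2 CPM was most like that of App were Fras1 (Pearson r 0.88, Spearman rho 0.83), Zbtb42 (0.87 and 0.76) and Tnik (0.86 and 0.84). For Fras1, r was 0.95 within the 9 tumours and 0.77 within the 12 normal libraries. The genes most like Bace2 were Stim2 (0.79 and 0.59), Suox (0.76 and 0.73) and Ffar2 (0.74 and 0.73). Those most like Aplp1 were Tm7sf2 (0.76 and 0.75), Pisd-ps1 (0.75 and 0.70) and Sh2d1b1 (0.75 and 0.83). For these, r was 0.92, 0.83 and 0.89 within the tumours but 0.59, 0.43 and 0.51 within the normal libraries. Sh2d1b1 averaged only 1.03 CPM. With library totals as the scale, the 3 genes of App and of Bace2 were the same, and only Sh2d1b1 was kept for Aplp1. Among the members, the pairs with the highest r were Aplp2 with Bace1 (0.83) and App with Aplp2 (0.72). These values are descriptions of libraries that share a design.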

How the data were processed

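Per the labels' protocols, RNA came from colon or colon tumour, ribosomal RNA was removed with RNase H, cDNA was primed with random hexamers, and an Illumina NovaSeq was used. The authors deposited raw counts per gene. The submitters' processing notes name Trimmomatic, HISAT2, featureCounts, DESeq2 and the build mm10. Strand setting and annotation are not given in the sources used here. In the deposited counts, 2 columns share a header and were used as unnumbered replicates a and b of knock-in female normal colon. The authors' own table of results was not used. Nothing states whether replicates came from separate animals, so p-values measure the spread between these libraries.

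Counts were tested with edgeR's quasi-likelihood F test, two-sided (TMM, filterByExpr, robust, 1 coefficient per group, all 21 libraries), in 9 comparisons and 3 interactions, with Benjamini-Hochberg adjustment over 15936 genes and a threshold of 0.05. CPM used TMM-scaled sizes and log2 CPM a prior count of 2. Genes named are the 9 members, up to 3 of 39 listed pathway genes per comparison, and the 3 genes most like App, Aplp1 and Bace2. A listed pathway gene and a marker gene enter the counts and sums but are not reported here by name. The members, lists and rules were chosen with earlier results of these data known. Annotation was GENCODE M21 (GRCm38, the assembly of mm10). Replicate numbers come from the labels. In wild-type males, the deviations of same-numbered tumour and normal libraries were weakly correlated (r 0.17, 0.17 and 0.21). Replicate 1 of knock-in and wild-type male normal colon, which differ in genotype, gave a larger r of 0.46. These values thus do not show that the numbers mark pairs, and the main test did not use the numbers. The test was also run on counts simulated from its own model and fitted spread, which cannot check the calls made here. Software was DESeq2 1.42.0, edgeR 4.0.16 and limma 3.58.1 under R 4.3.3, with scipy 1.17.1 under Python 3.11.15. Alternatives were limma voom, the DESeq2 Wald test, scaling by DESeq2 size factors or by library totals, the low-count filter replaced by none or by a minimum mean count of 50, only the compared groups, a replicate block, offsets for GC content and length, libraries 152 to 154 as a covariate, and leaving out each replicate. Leaving out those 3 libraries together was chosen after seeing the data.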

Additional observations from a re-analysis of the deposited data

How the results depend on the processing

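No called member changed sign in any alternative. The number of members called among 9 moved by more than 1.5 times in these cases. In knock-in male tumours it fell from 1 to 0 with only the compared groups and with the replicate block plus GC content and length offsets. In wild-type female tumours it went from 3 to 5 with library totals, 6 with limma voom and 1 with libraries 152 to 154 as a covariate. Between genotypes in male tumours it fell from 2 to 1 with that covariate, with only the compared groups, and without those 3 libraries. In knock-in against wild-type female normal colon it rose from 0 to 1 with library totals, 3 with limma voom, 2 with only the compared groups and 1 with GC content and length offsets. Between the sexes it rose from 0 to 1 in wild-type tumours with a mean of at least 50 counts, with the covariate, with DESeq2 and with only the compared groups, and to 2 with limma voom. In wild-type normal colon it rose from 0 to 1 with library totals and with limma voom. Where limma voom called more members, it also called more of the 15936 genes. These were 9258 in wild-type female tumours (7820 in edgeR) and 4506 in knock-in against wild-type female normal colon (2545). Between the sexes they were 2944 in wild-type tumours (137) and 5375 in wild-type normal colon (2534). Causes were not tested. Leaving out 1 replicate gave 1 to 3 calls of 4 in wild-type male tumours, 0 to 1 of 1 in knock-in male tumours, 0 to 2 calls between genotypes in male tumours, of which at most 1 was among the original 2, and 0 to 2 in female normal colon. The 2 calls without knock-in male tumour replicate 1 were Aplp2 and Bace1. The replicate block was fitted on 18 libraries of 6 groups, with the same effect per replicate number in all of these groups. It left 3 of the 4 calls in wild-type male tumours, losing App (adjusted p = 0.0717), and changed no other call of a member. Outside wild-type male tumours against normal colon, no comparison had only positive correlations between same-numbered libraries. Knock-in female normal colon was not in this block fit because 2 of its libraries carry no number. Groups of 3 limit every comparison, and counting error is small beside the spread between libraries for members with a high count.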
